A study of Mus musculus with 9 samples.

Results

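The classical MHC class I presentation machinery was followed in splenic myeloid-derived suppressor cells (MDSCs) through 9 genes, chosen by symbol from the 23284 gene symbols measured in each sample. They were H2-K1 and H2-D1, the heavy chains of the classical class I molecules, B2m, their common light chain, Psmb8 and Psmb9, catalytic subunits of the immunoproteasome, Tap1 and Tap2, the subunits of the peptide transporter, Tapbp, which encodes tapasin, and Nlrc5, a transactivator of class I genes. RNA-sequencing values came from MDSCs isolated with a magnetic antibody kit from spleens of mice bearing a spindle cell tumour (SCT), from a tumour line of a carcinogen-treated p16-knockout mouse. There were 3 groups of 3 samples: Ly6G+ PMN-MDSCs of wild-type (WT) C57BL/6J mice, Ly6G-Gr-1+ Mo-MDSCs of the same strain, and Mo-MDSCs of p16/p21 double-knockout (DKO) mice labelled C57BL/6, whose deletion the labels do not restrict to a cell type. No sample came from a tumour-free mouse, and DKO PMN-MDSCs were not analysed here. The labels give an age of 3 weeks, whereas the study's methods describe adult mice at inoculation and collection 3 weeks later, and the labels do not say whether a sample is 1 animal or a pool, so the p-values below measure the spread between these samples, which may be technical in part.

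MHC class I molecules carry short peptides of a cell's own proteins to its surface, where CD8+ T cells inspect them. The peptides are cut by the proteasome, whose immunoproteasome form contains the subunits Psmb8, Psmb9 and Psmb10 in place of Psmb5, Psmb6 and Psmb7, and are pumped by the Tap1-Tap2 transporter into the endoplasmic reticulum. There tapasin holds the empty heavy chain and its light chain at the transporter until a peptide is bound. Interferons raise the transcription of most of these genes, and Nlrc5 acts at the conserved promoter elements of class I genes. MDSCs are immature myeloid cells that accumulate in tumour-bearing mice and restrain T cells, and peptide presentation by MDSCs is a route by which they can touch CD8+ T cells directly.

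RefSeq promoter windows (GRCm38.p6, the build also called mm10) of 250 bases before the annotated start were matched for 7 of the 9 members. The windows of 4 of them are printed because the expression results below turn on these pairs: the heavy chains H2-K1 and H2-D1, whose ratio differed between the MDSC subsets, their light chain B2m, and Tap1, which shares its upstream DNA with Psmb9. Capitals mark matches, on either strand, to 5 short sequences: GAAANNGAA, the core of the interferon-stimulated response element; TTCNNNGAA, the interferon-gamma activated site; TGACGC, from the CRE-like X2 box; CCAAT, the Y box; and GGGGATTCC, an NF-kappaB site. For H2-K1, which has 2 RefSeq starts, the window of the downstream start is shown, at chr17:34000334-34000583 on the minus strand. The H2-D1 window is chr17:35262844-35263093 on the plus strand, the B2m window is chr2:122147437-122147686 on the plus strand, and the Tap1 window is chr17:34187306-34187555 on the plus strand.
H2-K1: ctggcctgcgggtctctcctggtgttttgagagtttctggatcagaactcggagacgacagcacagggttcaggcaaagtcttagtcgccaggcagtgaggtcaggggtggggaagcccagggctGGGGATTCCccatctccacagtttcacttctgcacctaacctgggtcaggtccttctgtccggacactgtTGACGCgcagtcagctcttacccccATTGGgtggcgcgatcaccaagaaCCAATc
H2-D1: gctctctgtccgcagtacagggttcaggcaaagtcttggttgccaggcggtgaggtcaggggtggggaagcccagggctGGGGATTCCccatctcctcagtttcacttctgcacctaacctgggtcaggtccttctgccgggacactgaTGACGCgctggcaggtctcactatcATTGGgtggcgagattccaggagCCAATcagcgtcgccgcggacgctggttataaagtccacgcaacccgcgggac
B2m: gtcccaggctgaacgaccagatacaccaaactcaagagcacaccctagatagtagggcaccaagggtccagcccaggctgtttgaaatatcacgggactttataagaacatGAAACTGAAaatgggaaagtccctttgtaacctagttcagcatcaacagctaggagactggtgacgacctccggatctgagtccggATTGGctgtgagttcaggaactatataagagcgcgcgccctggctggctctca
Tap1: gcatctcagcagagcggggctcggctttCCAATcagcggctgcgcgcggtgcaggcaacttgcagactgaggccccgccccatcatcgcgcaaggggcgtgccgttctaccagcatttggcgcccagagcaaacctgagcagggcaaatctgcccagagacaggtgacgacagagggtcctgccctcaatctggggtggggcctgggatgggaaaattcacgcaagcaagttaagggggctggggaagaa
The H2-K1 and H2-D1 windows were alike over 88.7% of their 203 aligned bases. Each held GGGGATTCC, TGACGC and 2 Y boxes, 1 on each strand, in the same order. The window of the other H2-K1 start, chr17:34000348-34000597, held GGGGATTCC and TGACGC, but of the Y boxes only ATTGG. GGGGATTCC was present in 0.215% and TGACGC in 6.15% of 32536 windows of this length, and both occurred in 2 of the 7 member windows. The Y box occurred in 6 of the 7, against 33.8% of all windows. The 7 windows are not independent, since H2-K1 and H2-D1 are alike and the Tap1 and Psmb9 matches are 1 Y box counted in both. These counts therefore do not show enrichment. An exact match to the interferon-stimulated core was found in 1 member window, that of B2m (7.15% of all windows). The interferon-gamma activated site was matched in 1, that of Psmb8 (7.04%). Only exact letters were matched, so a window without a match, those of H2-K1 and H2-D1 included, can still hold a variant of an interferon site. Tap1 and Psmb9 are transcribed in opposite directions from starts 226 bases apart, and 225 bases of their windows are the same DNA, with 1 Y box. These matches are a description of the letters and were not tested as sites.

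All 9 members were measured well above 1 FPKM in every sample, so none entered the tests through 1 group alone. FPKM, the number of fragments scaled to transcript length and to the mapped fragments of the sample, corrects for length. Levels of different genes can thus be set side by side, though the gene annotation behind the lengths is not given in the sources used here. The order of the mean levels was the same in the 3 groups: B2m, H2-D1, H2-K1, Psmb8, Tapbp, Psmb9, Tap1, Tap2 and Nlrc5. Neighbours in this order did not overlap between samples of a group, except Tap1 and Tap2 in PMN-MDSCs. By mean FPKM, B2m ranked 15, 16 and 20 among all symbols in PMN-MDSCs, WT Mo-MDSCs and the samples labelled DKO, whereas Nlrc5, the regulator, ranked 6255, 4290 and 3851.

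**Figure D1:**
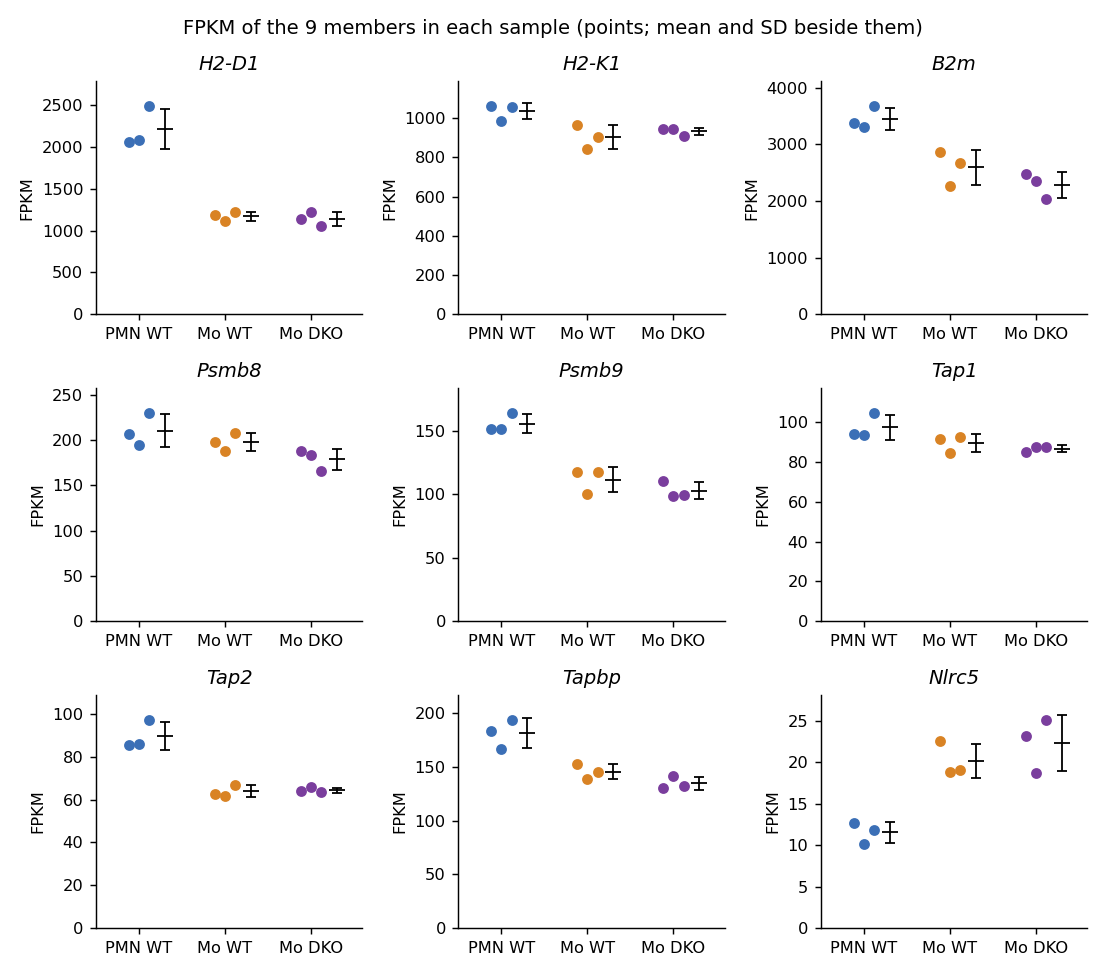
FPKM of each member in each sample, with replicates 1 to 3 from left to right as points and the mean and SD (n = 3) beside them, on axes that start at 0. H2-D1 shows the widest gap between PMN-MDSCs (2060 to 2486) and WT Mo-MDSCs (1115 to 1220), Nlrc5 is the one member higher in Mo-MDSCs, and the samples labelled DKO overlap WT Mo-MDSCs for 8 of the 9 members.

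The files gave 11299 to 11418 genes at 1 FPKM or more per sample, total FPKM of 494252 to 916642, upper quartiles of 22.02 to 24.49 and, for the 10 most abundant genes, 9.43% to 28.91% of the total. Read depth is unknown; from the steps between low values it ranged from 0.809 to 1.31 relative to 1 WT Mo-MDSC sample. The labels' library numbers set replicate 1 of each group apart from replicates 2 and 3. These numbers were not taken as dates. Summed neutrophil markers were 100600 to 234000 FPKM in PMN-MDSCs, 17920 to 61910 FPKM in Mo-MDSCs of WT mice and 7071 to 17140 FPKM in the samples labelled DKO, and summed monocyte markers were 1850 to 1882, 3604 to 4181 and 2863 to 3317 (10 of 11 and 9 of 9 listed genes in the files, without Ly6g). Cdkn1a, which encodes p21, was not lower in the samples labelled DKO: it was at 5.55, 8.52 and 6.00 FPKM in them and at 8.18, 6.46 and 8.04 in WT Mo-MDSCs. Cdkn2a, which encodes p16, was at 0.258, 0.586 and 0 against 0.718, 0.772 and 0.432. A value summed over a gene cannot show the loss of part of it, so these values do not check the label, and directions below are drawn from the samples labelled DKO.

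Between the MDSC subsets of WT mice, members were called in both directions. In WT Mo-MDSCs against PMN-MDSCs, 5 members were lower (H2-D1, Tap2, Psmb9, B2m and Tapbp), Nlrc5 was higher, and H2-K1, Tap1 and Psmb8 did not pass the test (limma on log2(FPKM + 0.1), Benjamini-Hochberg adjusted p below 0.05 over 11491 genes). The median log2 fold change of the members was -0.32, against 0.01 over all genes tested. Among all genes 20.6% were called lower and 18.5% higher, and 48.3% had an unadjusted p below 0.05, as did 6 of the 9 members. The groups did not overlap for 8 of the 9 members, against 52.5% of all genes. The split depended on scaling: after quantile normalization, 3 members were called higher (Psmb8, Tap1 and Nlrc5) and 2 lower (H2-D1 and Tap2), with a member median of 0.07, and H2-K1 and Tapbp also turned positive. Over all 11491 genes, 2542 were then called higher and 2041 lower, with a median of 0.06, so the member median was near that of all genes. H2-D1, Tap2 and Nlrc5 kept direction and an adjusted p below 0.05 in every fit tried, though Nlrc5 did not reach the study's fold above 2.

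Of the heavy chains, H2-D1 passed the test and H2-K1 did not. H2-D1 lies at chr17:35262730-35267499 on the plus strand (positions here are GENCODE M21 gene models on mm10). Its level was 2060, 2080 and 2486 FPKM in PMN-MDSC replicates 1 to 3, and 1182, 1115 and 1220 FPKM in WT Mo-MDSCs. Every PMN-MDSC sample was well above every Mo-MDSC sample. The log2 fold change was -0.91 with an SE of 0.11 (limma adjusted p = 0.000948), a change in level of -46.7% with a 95% confidence interval from -55.8% to -35.9%.

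H2-K1, at chr17:33996017-34000347 on the minus strand, was at 1062, 988 and 1059 FPKM in PMN-MDSCs and at 967, 844 and 903 FPKM in WT Mo-MDSCs. The groups did not overlap, but they lay close, with the lowest PMN-MDSC sample just above the highest Mo-MDSC sample. The log2 fold change of H2-K1 was -0.20 with an SE of 0.09 (limma adjusted p = 0.138) and an interval from -0.42 to 0.02. With the replicate number as a block, for which the samples of these groups deviated in pairs, the adjusted p of H2-K1 was 0.0246 at an unchanged fold change. After quantile normalization the H2-K1 difference was positive, at 0.12.

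H2-K1 and H2-D1 belong to a family of near-identical copies, so the share of reads that could be divided among them was counted. Of the 75-base windows of the longest coding transcript, the read length of the study, 6.90% in H2-D1 and 1.55% in H2-K1 were also found in transcripts of other genes, 17 genes for H2-D1 and 13 for H2-K1. H2-Q1 shared the most windows with H2-D1 (5.42%), and H2-D1 and H2-K1 shared 24 windows with each other. How such reads were assigned in the deposited values is not given in the sources used here, so the values of the heavy chains carry that uncertainty. Of the other members, Tapbp shared 0.992% of its windows with 1 other gene model and the remaining 6 shared none.

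B2m, at chr2:122147686-122153083 on the plus strand and so away from the MHC, was at 3372, 3303 and 3678 FPKM in PMN-MDSCs and at 2866, 2262 and 2667 FPKM in WT Mo-MDSCs. The groups did not overlap, and Mo-MDSC replicate 2 was the lowest sample. The log2 fold change of B2m was -0.42 with an SE of 0.13 (limma adjusted p = 0.0412). This call was not stable, since the adjusted p rose to between 0.0602 and 0.13 when any of the 6 samples was left out. It was 0.283 after quantile normalization, with B2m still lower.

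Of the immunoproteasome subunits, Psmb9 passed the test and Psmb8 did not, and the difference between the subunits was not tested. Psmb9, which replaces Psmb6, lies at chr17:34181987-34187764 on the minus strand. It was at 152, 151 and 165 FPKM in PMN-MDSCs and at 118, 100 and 118 FPKM in WT Mo-MDSCs. All Mo-MDSC samples were below all PMN-MDSC samples, and the log2 fold change was -0.48 with an SE of 0.09 (limma adjusted p = 0.00552). After quantile normalization Psmb9 was lower by less, at -0.12 with an adjusted p of 0.243. Psmb8, which replaces Psmb5, lies at chr17:34197721-34201454 on the plus strand. It was at 207, 195 and 230.1 FPKM in PMN-MDSCs and at 198.3, 187.9 and 207.5 FPKM in WT Mo-MDSCs. These ranges overlapped, and the log2 fold change was -0.09 with an interval from -0.30 to 0.12 (limma adjusted p = 0.478). Quantile normalization turned it to 0.36 with an adjusted p of 0.00335.

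Of the transporter subunits, Tap2 passed the test and Tap1 did not. Tap2, at chr17:34203527-34216321 on the plus strand, was at 85.6, 85.9 and 97.3 FPKM in PMN-MDSCs and at 62.5, 61.9 and 67.0 FPKM in WT Mo-MDSCs. The groups were apart, with a log2 fold change of -0.49 and an SE of 0.08 (limma adjusted p = 0.00328). Tap1, at chr17:34187553-34197225 on the plus strand, was at 94.3, 93.5 and 104.8 FPKM in PMN-MDSCs and at 91.8, 84.7 and 92.8 FPKM in WT Mo-MDSCs. The nearest samples of these groups were within 1 FPKM of each other. The log2 fold change of Tap1 was -0.12 with an interval from -0.31 to 0.07 (limma adjusted p = 0.277), and quantile normalization turned it to 0.21 (adjusted p = 0.0299). The gene models of Tap1 and Psmb9 overlap by 212 bases at their 5′ ends on opposite strands. The libraries were stranded, but whether strand was used in calculating the values is not given in the sources used here.

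Tapbp, at chr17:33915899-33929292 on the plus strand, was at 184, 166 and 194 FPKM in PMN-MDSCs and at 152, 138 and 146 FPKM in WT Mo-MDSCs. The samples did not overlap, and the log2 fold change was -0.32 with an SE of 0.09 (limma adjusted p = 0.0247). The call was lost without PMN-MDSC replicate 1 (adjusted p = 0.0636) or 3 (0.0699) and without Mo-MDSC replicate 2 (0.0842) or 3 (0.0746), and quantile normalization turned the difference to 0.07.

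Nlrc5 differed in the opposite direction. This gene, at chr8:94434356-94527272 on the plus strand, was at 12.7, 10.2 and 11.8 FPKM in PMN-MDSCs and at 22.5, 18.9 and 19.1 FPKM in WT Mo-MDSCs. The lowest Mo-MDSC sample lay well above the highest PMN-MDSC sample. The log2 fold change was 0.80 with an SE of 0.11 (limma adjusted p = 0.00175), a level 73.9% higher, with an interval from 44.3% to 109.5% higher. It was 0.71 to 0.87 on the log2 scale over the fits tried, quantile normalization included.

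Replicates 2 and 3, set apart from replicate 1 by library number, gave the same directions for all 9 members on their own. H2-D1 was at -0.96, Tap2 at -0.51, Psmb9 at -0.54 and Nlrc5 at 0.79 on the log2 scale (limma adjusted p = 0.0196, 0.0325, 0.0373 and 0.0126). These samples are also part of the comparison above. B2m and Tapbp did not pass in these samples (adjusted p = 0.109 and 0.0976). Replicate 1 alone leaves 1 sample per group, which gives no test. Markers of other splenic cells, which also carry class I molecules, were detected beside these results. Of all genes tested between these subsets, 20.6% were called lower in WT Mo-MDSCs and 18.5% higher. Summed B-cell markers were 1547 to 1777 FPKM in PMN-MDSCs and 1129 to 1280 in WT Mo-MDSCs, with 3 of 7 called lower (Cd79a, Cd79b and Ebf1). Red-pulp macrophage markers summed to 7922 to 8728 against 4915 to 5864, with 6 of 8 called lower. After quantile normalization 2 of the 8 red-pulp macrophage markers were called lower, 1 B-cell marker was called lower and 1 higher, and 3 T- and NK-cell markers were called lower and 0 higher. T- and NK-cell markers summed to 21.5 to 31.1 against 16.2 to 21.5, with 2 of 6 tested called lower (Cd3d and Cd4) and 1 higher (Nkg7), and Ncr1 and Klrb1c stayed under 1 FPKM in every sample. Dendritic-cell markers summed to 7.71 to 11.0 against 10.6 to 15.6, with 2 of 4 tested called higher (Flt3 and Clec9a) and Siglech under 1 FPKM in every sample. Erythroid markers overlapped, at 1295 to 2923 against 1233 to 2821, with Hba-a2 at or near 0 in every sample. These markers were named after their values were seen, and the part of these cells in the member differences was not tested. In bulk samples, fewer cells of a type and less RNA per cell cannot be told apart.

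**Figure D2:**
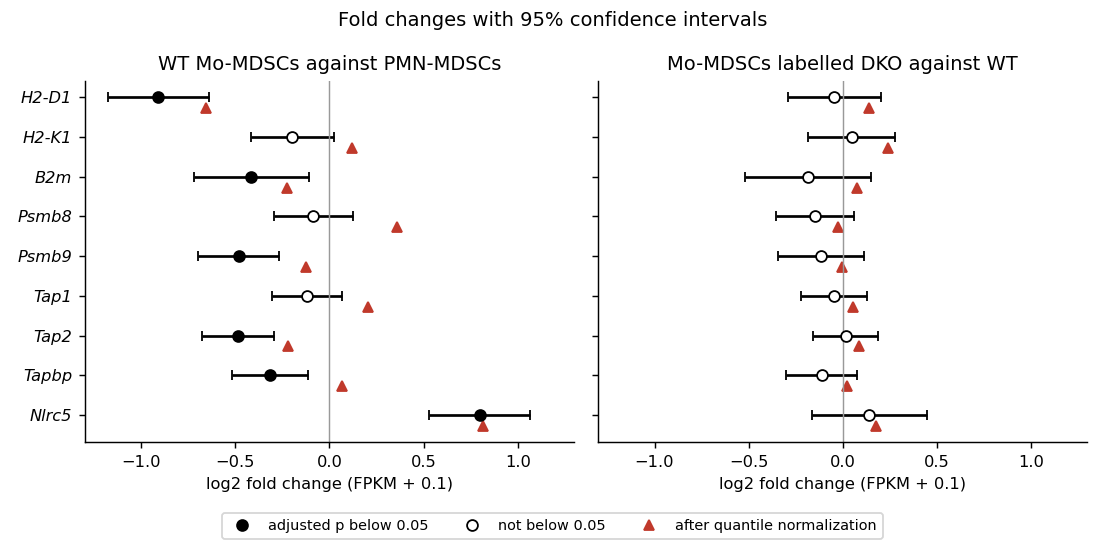
Log2 fold change of each member with its 95% confidence interval (circles, filled where the limma adjusted p was below 0.05) and its value after quantile normalization (triangles), for WT Mo-MDSCs against PMN-MDSCs on the left and Mo-MDSCs labelled DKO against WT on the right. On the left H2-D1 (-0.91), Tap2 (-0.49) and Nlrc5 (0.80) stay on their side of 0 after quantile normalization while H2-K1, Psmb8, Tap1 and Tapbp cross it, and on the right every interval includes 0.

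Ratios of 2 genes within a sample are not changed by a scaling factor applied to the whole sample, so 6 of them, 4 between members and 2 between a member and its constitutive counterpart, were compared in each pair of groups. Quantile normalization, which is not such a factor, can change them. In WT Mo-MDSCs against PMN-MDSCs, 5 of the 6 did not overlap between groups. Of single genes 52.5% did not overlap, and the share over other gene pairs was not computed. H2-K1, H2-D1 and B2m each enter more than 1 ratio, so these ratios are not independent of each other. The ratio of H2-K1 to H2-D1 was 0.515, 0.475 and 0.426 in PMN-MDSCs and 0.819, 0.756 and 0.740 in WT Mo-MDSCs. All Mo-MDSC samples were higher, by 1.64-fold. H2-D1 to B2m was lower in Mo-MDSCs, with 0.611, 0.630 and 0.676 in PMN-MDSCs and 0.412, 0.493 and 0.458 in WT Mo-MDSCs, whereas H2-K1 to B2m was 0.315, 0.299 and 0.288 against 0.337, 0.373 and 0.339. The ratio of Tap1 to Tap2 was 1.10, 1.09 and 1.08 in PMN-MDSCs and 1.47, 1.37 and 1.39 in WT Mo-MDSCs, so it was higher in Mo-MDSCs. The level of such a ratio also depends on the transcript lengths used, which are not given, so it does not show parity of the subunits. Among the proteasome subunits, Psmb9 to its constitutive counterpart Psmb6 was 2.48, 2.06 and 2.25 against 1.68, 1.32 and 1.53, while Psmb8 to Psmb5 overlapped, at 2.88, 2.45 and 2.83 against 2.54, 2.22 and 2.42. Each ratio that did not overlap had a two-sided exact permutation p of 0.1, the smallest that 3 samples against 3 allow, and 0.2 after adjustment over the 12 ratio tests, so none can pass a threshold of 0.05 in this design. The directions of these 5 ratios were the same in replicates 2 and 3 alone and without any 1 sample. After quantile normalization, added for the ratios after the data were seen, the log2 differences also kept their direction, at 0.78 for H2-K1 to H2-D1 (0.71 as deposited), -0.43 for H2-D1 to B2m (-0.49), 0.42 for Tap1 to Tap2 (0.37), -0.50 for Psmb9 to Psmb6 (-0.59) and 0.34 for H2-K1 to B2m (0.22). Psmb8 to Psmb5, whose groups overlapped, went from -0.18 to -0.03.

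**Figure D3:**
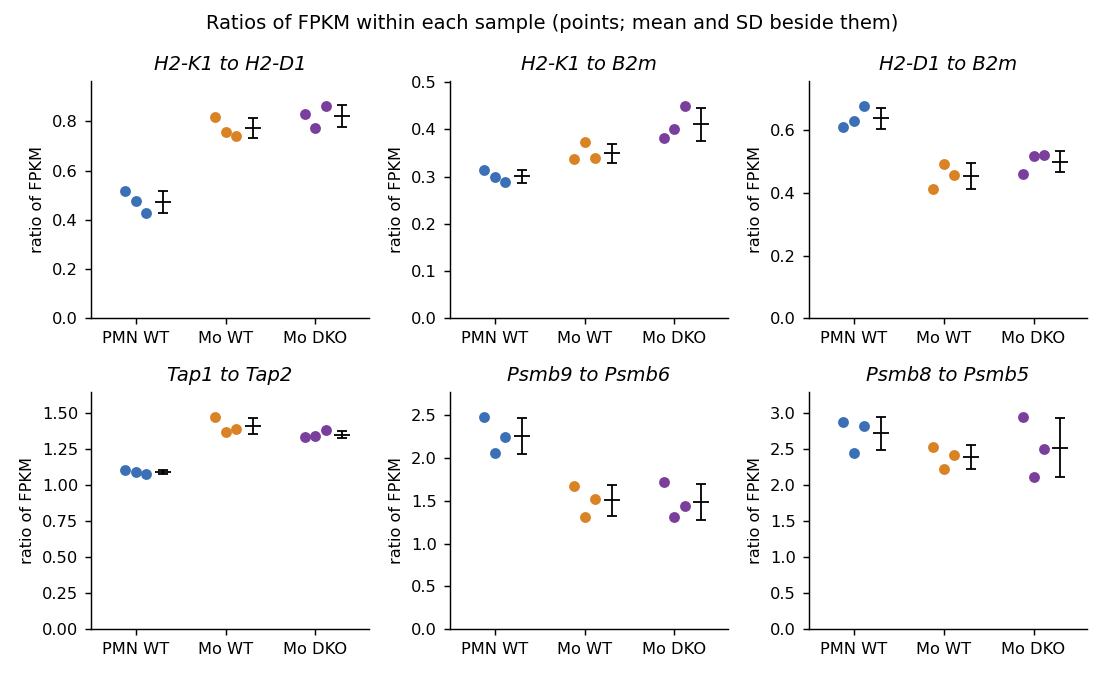
Ratio of the FPKM of 2 genes within each sample, with replicates 1 to 3 as points and the mean and SD (n = 3) beside them, on axes that start at 0. H2-K1 to H2-D1 (mean 0.472 against 0.772) and Tap1 to Tap2 (1.09 against 1.41) are higher in the WT Mo-MDSC samples, Psmb9 to Psmb6 (2.26 against 1.51) is lower, and H2-K1 to B2m is the one ratio whose samples labelled DKO (0.382 to 0.449) lie apart from WT Mo-MDSCs (0.337 to 0.373).

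The comparison of Mo-MDSCs labelled DKO with WT Mo-MDSCs sets the p16/p21 genotypes side by side within 1 subset. With limma, 0 of the 9 members passed an adjusted p of 0.05, and 0 had an unadjusted p below 0.05, against 15.0% of the 11451 genes tested. Of these genes 0.166% were called higher and 0.0873% lower, that is 19 and 10 genes. Member log2 fold changes ran from -0.18 for B2m to 0.14 for Nlrc5, with a median of -0.05 against -0.02 over all genes. After quantile normalization 0 members were called, 1 had an unadjusted p below 0.05, and the member median turned to 0.08, with 2 members negative in place of 6. Over all 11451 genes, 22 were then called higher and 12 lower, 1633 had an unadjusted p below 0.05, and the median was 0.01. An adjusted p that misses the threshold does not show equal levels, and the intervals give the sizes that the data leave possible.

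H2-K1 was at 944, 943 and 912 FPKM in the samples labelled DKO, all within the WT Mo-MDSC range, with an interval of the difference from -12.0% to 21.3%. Its log2 fold change was 0.05, and 0.24 after quantile normalization (adjusted p = 0.311). H2-D1 was at 1136, 1219 and 1059 FPKM, with an interval from -18.2% to 15.1%. B2m was at 2472, 2353 and 2032 FPKM, so that replicate 3 lay below every WT sample, and its interval ran from -30.1% to 11.0%.

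Psmb8 was the one member whose groups did not overlap, at 187.5, 183.5 and 165.3 FPKM in the samples labelled DKO against 187.9 to 207.5 in WT Mo-MDSCs, where 20.8% of all genes did not overlap. Its replicate 1 differed from the lowest WT sample by less than 1 FPKM. The log2 fold change was -0.15 with an interval from -0.35 to 0.06 (limma adjusted p = 0.461). Psmb9 was at 110.8, 99.1 and 99.4 FPKM and overlapped the WT samples (interval -0.34 to 0.11).

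Tap1, at 85.0, 87.8 and 87.7 FPKM, and Tap2, at 63.8, 65.7 and 63.7 FPKM, overlapped the WT samples and had the narrowest intervals of the members. The Tap1 difference lay between -14.4% and 9.49%, and that of Tap2 between -10.4% and 13.9%. Tapbp was at 130.3, 142 and 132 FPKM, with 2 samples below the WT range and an interval of the log2 fold change from -0.30 to 0.08. Nlrc5 was at 23.2, 18.7 and 25.2 FPKM, the widest relative spread within a group among the members, with an interval from -10.7% to 36.2%.

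Of the ratios, 1 of 6 did not overlap between samples labelled DKO and WT Mo-MDSCs, where 20.8% of single genes did not overlap. H2-K1 to B2m was 0.382, 0.401 and 0.449 in the samples labelled DKO, above all WT samples by 1.17-fold (two-sided exact permutation p = 0.1, adjusted 0.2). H2-K1 to H2-D1, at 0.831, 0.773 and 0.861, and Tap1 to Tap2, at 1.33, 1.34 and 1.38, overlapped the WT Mo-MDSC values and lay apart from those of PMN-MDSCs. Replicates 2 and 3 alone also gave 0 calls among the members, with log2 fold changes from -0.18 (Psmb8) to 0.19 (Nlrc5). Summed markers differed between these groups as well: B-cell markers were at 1199 to 1533 FPKM against 1129 to 1280 (0 of 7 called), red-pulp macrophage markers at 6248 to 9004 against 4915 to 5864 (1 of 8 called higher, Hmox1), T- and NK-cell markers at 14.8 to 20.9 against 16.2 to 21.5 (0 of 6), dendritic-cell markers at 13.8 to 16.3 against 10.6 to 15.6 (0 of 5) and erythroid markers at 1499 to 2496 against 1233 to 2821 (0 of 5). Sums of neutrophil and monocyte markers lay below the WT range, with 0 of 10 and 0 of 9 called. An unadjusted p below 0.05 was found for 8 and 6 of them, against 15.0% of all genes. Log2 fold changes were negative for 9 of the 10 and 8 of the 9. Mmp8, a neutrophil marker named after its values were seen, was higher, at 76.0, 112 and 71.7 FPKM against 42.3, 50.2 and 55.2. Its log2 fold change was 0.79 (limma adjusted p = 0.156). The part of all these markers in the member values was not tested.

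The other genes of the pathway were taken from lists chosen with earlier results of these data known. Of all genes tested between the WT subsets, 18.5% were called higher in Mo-MDSCs and 20.6% lower by limma. An unadjusted p below 0.05 was found for 48.3% of them, and after quantile normalization 2542 of 11491 were called higher and 2041 lower. In WT Mo-MDSCs against PMN-MDSCs, 2 of the 14 genes of the constitutive proteasome core were called higher (Psma7 and Psma4) and 0 lower by limma, with 2 of 14 at an unadjusted p below 0.05 and a median log2 fold change of 0.01, while after quantile normalization 11 were called higher. Psmb5, Psmb6 and Psmb7, the subunits that the immunoproteasome subunits replace, had log2 fold changes of 0.10, 0.11 and -0.02 (limma adjusted p = 0.375, 0.416 and 0.873), and after quantile normalization they were called higher at 0.39, 0.37 and 0.30. Psmb10, the immunoproteasome subunit outside the 9 members, was higher, at 81.3, 77.4 and 83.8 FPKM against 64.6, 60.8 and 58.3 in PMN-MDSCs (log2 fold change 0.40, SE 0.07, limma adjusted p = 0.00499). Thus Psmb10 was higher, Psmb9 lower and Psmb8 not distinguishable between the subsets in the values as deposited. Psme1 and Psme2, which encode the proteasome activator, did not pass, whereas after quantile normalization both they and Psmb10, 3 of 3 genes, were called higher, with a median of 0.52. Of 12 loading chaperones and trimming peptidases, Blmh, a cytosolic peptidase, was higher (0.38), and Lnpep, a peptidase of endosomes, and Hspa5, a chaperone of the endoplasmic reticulum, were lower (-0.45 and -0.30). After quantile normalization 4 of these 12 were called higher and 1 lower, and Hspa5 turned positive, to 0.16.

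Genes that regulate class I transcription were split between the subsets. So were all genes tested, with 18.5% called higher in WT Mo-MDSCs and 20.6% lower. Of 17 regulators, 4 were called higher in WT Mo-MDSCs (Stat2, Irf8, Rfxank and Nfkb1) and 7 lower, with a median log2 fold change of -0.17, and after quantile normalization 5 and 5 were called. Irf1, an interferon-induced activator of class I genes, was at 146.8, 166.8 and 169.2 FPKM in PMN-MDSCs and at 95.4, 86.4 and 92.1 FPKM in WT Mo-MDSCs (log2 fold change -0.82, SE 0.09, limma adjusted p = 0.000421), and it was still called lower after quantile normalization, at -0.47. The part of Irf1 and of the other regulators in the member differences was not tested. Stat3, a transcription factor of cytokine receptors, was lower (-0.62) and Stat2, a partner of Irf9 in type I interferon signalling, higher (0.55). Of 9 interferon receptor and signalling genes, 2 were called higher (Tyk2 and Ifngr1) and 5 lower (Socs3, Jak1, Jak2, Socs1 and Ifngr2). Socs3, a feedback inhibitor of cytokine signalling, differed the most of them at -2.59, then the kinases Tyk2 at 1.11 and Jak1 at -0.90. Interferon-stimulated genes that serve as a comparison were also split, with 4 of 15 higher and 8 lower: Mx1 was higher (2.24), and Oasl2 (-1.97) and Ifit1 (-1.85) were lower. After quantile normalization 3 of the 9 receptor and signalling genes were called higher and 4 lower, and 6 of the 15 interferon-stimulated genes higher and 8 lower. Genes named here in the groups' smaller counts, apart from those with the largest changes, were chosen after their values were seen.

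In Mo-MDSCs labelled DKO against WT, 1 gene over these lists passed the test. Of all genes tested there by limma, 0.166% were called higher and 0.0873% lower, and 15.0% had an unadjusted p below 0.05. Socs3 was at 14.6, 20.1 and 15.3 FPKM against 32.5, 38.2 and 35.7, with a log2 fold change of -1.10 (SE 0.13, limma adjusted p = 0.0278). The groups were far apart, and the log2 fold change of Socs3 lay between -1.24 and -1.01 over the settings tried, but the adjusted p ranged up to 0.335 over these settings and was above 0.05 when any of 5 samples was left out (0.0616 to 0.143), the exception being DKO replicate 2. None of the 17 regulators was called by limma, 2 with an unadjusted p below 0.05, and none of the 15 interferon-stimulated genes was, 3 with an unadjusted p below 0.05. The constitutive proteasome core had 0 of 14 called and 13 of 14 negative, with a median of -0.20, and 5 had an unadjusted p below 0.05 (Psma7, Psma4, Psma2, Psmb3 and Psmb2). After quantile normalization 12 of 14 were negative, with a median of -0.10, and 1 had an unadjusted p below 0.05. Psmb5, Psmb6 and Psmb7 had log2 fold changes of -0.21, -0.10 and -0.17, near the -0.15 and -0.12 of Psmb8 and Psmb9, and Psmb10 had -0.22 (limma adjusted p = 0.331 to 0.633).

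**Figure D4:**
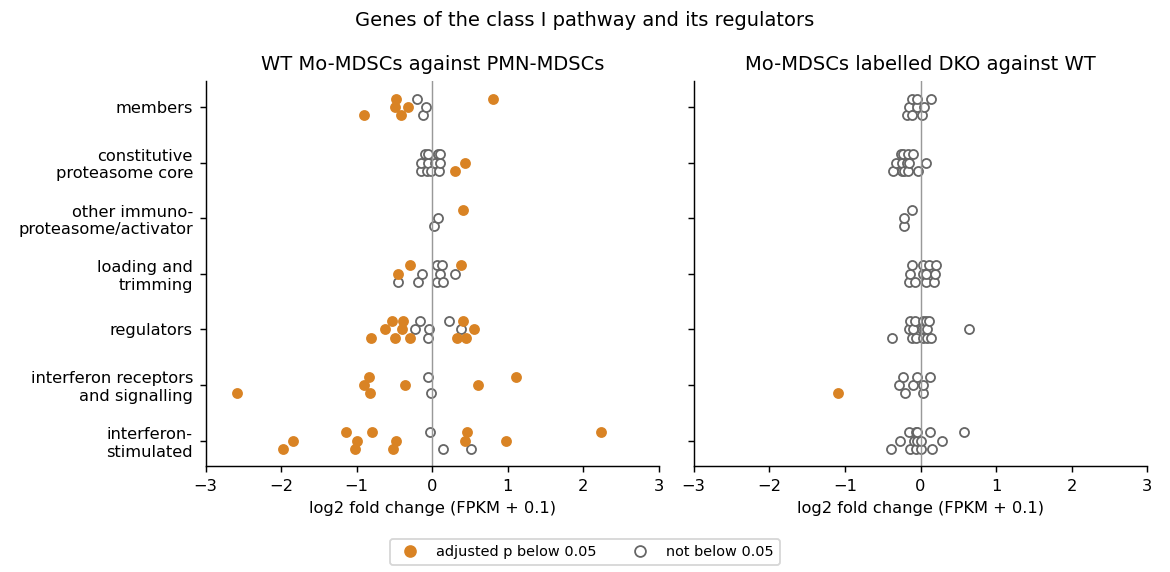
Log2 fold change of each gene tested in the member list and 6 lists of the pathway and its regulators (1 circle per gene, filled where the limma adjusted p was below 0.05, spread vertically to separate the circles), for WT Mo-MDSCs against PMN-MDSCs on the left and Mo-MDSCs labelled DKO against WT on the right. On the left called genes lie on both sides of 0 in the members (5 lower, 1 higher), the regulators (7 and 4) and the interferon lists, and on the right Socs3 (-1.10) is the one filled circle.

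Of the 9 members, 7 lie on chromosome 17, between 4.82 and 6.17 Mb from the start of Cdkn1a, the p21 gene targeted in the DKO mice. Of 305 tested genes within 10 Mb of Cdkn1a, 5 were called in samples labelled DKO against WT (Prss29, Glo1, Gm8801, H2-T24 and H2-T10, named after their values were seen). H2-T24 and H2-T10 are nonclassical class I genes at 6.93 and 7.03 Mb, beyond H2-D1. Between the first and the last member on this chromosome, 73 genes were tested by limma and 0 were called, the 7 members included. Of all 11451 genes tested, 0.166% were called higher and 0.0873% lower, so 0 calls among 73 genes do not set this stretch apart. H2-K1 at 4.91 Mb and H2-D1 at 6.17 Mb differed by 0.05 and -0.04 on the log2 scale. B2m and Nlrc5, on chromosomes 2 and 8, had the lowest and the highest value of the members in this comparison as deposited. Both intervals included 0, and B2m turned to 0.075 after quantile normalization.

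**Figure D5:**
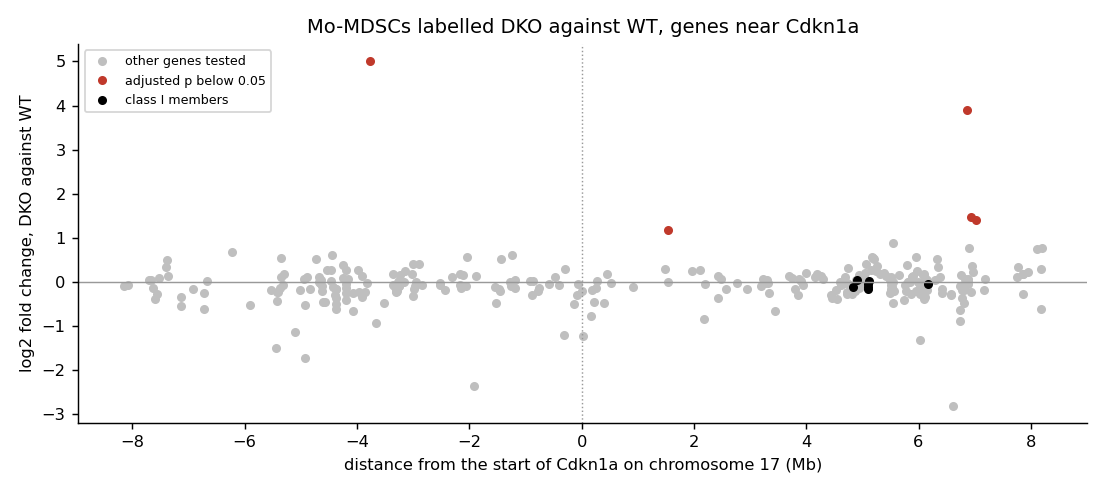
Log2 fold change of Mo-MDSCs labelled DKO against WT (vertical axis) for genes tested within 10 Mb of the start of Cdkn1a on chromosome 17, against the distance from that start in Mb (horizontal axis). The 7 members on this chromosome (black) lie between -0.15 and 0.05, while the 5 genes with a limma adjusted p below 0.05 (red) lie between 1.18 and 5.01.

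The mean profile of the members over the 9 samples, centred per gene on the log2 scale, was 0.18 in PMN-MDSCs, -0.07 in WT Mo-MDSCs and -0.12 in the samples labelled DKO. Nlrc5 lay farthest from it among the members, with a root mean square difference of 0.559, then H2-D1 at 0.317, while Tapbp, H2-K1, Tap1 and Psmb8 were within 0.0781. The genes outside the list with the smallest difference from this profile, among 11717 compared, were Mat2b (0.0268), Lyn (0.0400), Fgfr1op2 (0.0422), Ormdl2 (0.0434) and Dscr3 (0.0439). They are the nearest of many genes to a small step, and the likeness was not tested. The profile is that of the values as deposited, and the member median between the WT subsets turned to 0.07 after quantile normalization. Lyn, a Src-family kinase of myeloid and B cells, was at 289 ± 22.0 FPKM (SD, n = 3) in PMN-MDSCs, 239 ± 10.4 in WT Mo-MDSCs and 226 ± 8.14 in the samples labelled DKO.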

How the data were processed

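RNA of 9 MDSC samples was sequenced by the authors from stranded mRNA libraries as 75-base single-end reads. Per the labels and the study's methods, reads were mapped to mm10 with TopHat2 2.0.13, Bowtie2 2.2.3 and SAMtools 0.1.19, and Cuffnorm 2.2.1 gave the deposited FPKM values, 1 per gene symbol and sample. The gene annotation, strand setting and scaling used are not given in the sources used here, and depth in reads is unknown. Scaling between samples can change a direction, so quantile normalization was an alternative.

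Groups came from the sample titles. The titles of the PMN-MDSC samples name no genotype, and these samples were taken as WT. Values were transformed to log2(FPKM + 0.1), and limma 3.58.1 was fitted to genes that reached 1 FPKM in 3 or more of the 6 samples compared (R 4.3.3; lmFit, eBayes with a trend, no covariates), with Benjamini-Hochberg adjustment over all genes tested. FPKM values are not counts and were not tested as counts; the pseudocount understates changes of low genes. Ratios were tested by exact permutation. Samples of WT Mo-MDSCs and PMN-MDSCs with the same replicate number deviated together (correlations 0.20 to 0.48), as found in the values and not stated as a shared animal, while those of the samples labelled DKO and WT did not all do so (-0.07 to 0.35).

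The members and lists were chosen with earlier results of these data known. The genes named are the members, Psmb5, Psmb6, Psmb7, Psmb10, Cdkn1a, Cdkn2a, pathway genes called in the samples labelled DKO, the 3 called genes per list with the largest change between the subsets, and the 5 genes with the closest profile; others are marked as named after their values were seen. Promoters are RefSeq sequences (GRCm38.p6), and 75-base windows were compared over GENCODE M21 transcripts. The fit was tested on simulated data. Alternatives were other pseudocounts (1 and 0.01), filters, quantile normalization, all 9 samples in 1 fit, the replicate block, replicates 2 and 3 only, leaving out each sample, no variance moderation, and the study's fold thresholds (above 2 or below 0.75, unadjusted p below 0.05).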

Additional observations from a re-analysis of the deposited data

How the results depend on the processing

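Among the members, H2-D1, Tap2 and Psmb9 in WT Mo-MDSCs against PMN-MDSCs kept their direction under every alternative, and H2-D1 and Tap2 kept their call; Psmb9 lost it under quantile normalization (-0.12). Nlrc5 kept its direction and lost its call where the study's fold above 2 was required. Quantile normalization reversed H2-K1 (0.12), Tap1 (0.21), Tapbp (0.069), Psmb8 (0.36), Psmb7 (0.30) and Hspa5 (0.16) in that comparison, and H2-D1 (0.14), B2m (0.075), Tap1 (0.052) and Tapbp (0.022) in samples labelled DKO against WT; it moved the median of all genes from 0.01 to 0.06 and from -0.02 to 0.01. Leaving out 1 sample put Psmb7 between -0.062 and 0.054 (positive without PMN-MDSC replicate 3). In samples labelled DKO it put H2-K1 between -0.003 and 0.096 and Tap2 between -0.007 and 0.051 (both negative without WT Mo-MDSC replicate 2), H2-D1 between -0.095 and 0.007 (positive without DKO replicate 3), the log2 ratio of Psmb8 to Psmb5 between -0.053 and 0.186 (negative without DKO replicate 1, and -0.009 in replicates 2 and 3 only) and that of Psmb9 to Psmb6 between -0.127 and 0.069 (positive without WT Mo-MDSC replicate 1 and without DKO replicates 2 or 3, and 0.007 after quantile normalization). The cause was not tested.

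The number of members called between the subsets was 6, 3 with the study's fold thresholds, 4 to 5 when 1 sample was left out, and 7 with the replicate block. Over all genes it was 4492, 2960 in replicates 2 and 3 only, 2446 with the study's thresholds and 3295 to 3864 when 1 sample was left out. In samples labelled DKO against WT, 0 members were called by limma under every alternative, and also 0 when 1 sample was left out. Over all genes 29 were called there, 13 without the filter, 51 with all 9 samples in 1 fit, 12 in replicates 2 and 3 only, 0 without variance moderation (by a linear model per gene; 1719 had an unadjusted p below 0.05 with limma), 544 with the study's thresholds and 8 to 25 when 1 sample was left out. There the numbers were not taken to pair the samples, since 1 of the 3 same-number correlations was -0.07, and the replicate block gave 20 calls. Of 12 ratio comparisons 6 did not overlap, 6 to 8 when 1 sample was left out. Read depth is unknown, so no counting error can be given.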
